A study of Saccharomyces cerevisiae with 5 samples.

Results

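The genes described here are 6 phosphatase genes tied to the phosphate-responsive (PHO) system of budding yeast, namely PHO5, PHO3, PHO8, PHM8, PHO13 and DIA3. They were chosen by name, and each was read from the probe sets that the array annotation gives to that gene alone, which was 1 probe set for every gene. All 6 were among the 4824 genes measured. DIA3 passed the filter on dim signal only through its arrays at 0 and 0.01 mM phosphate, so its difference between doses was fixed in part by the filter. Yeast of the W303 strain carrying the allele PHO4-MYC::TRP1, a MYC-tagged PHO4 with TRP1 as marker, was starved of phosphate in PNB medium for 3 h. The cultures were then moved for 80 min to medium with 0, 0.01, 0.1, 1 or 10 mM phosphate, and total RNA from each was hybridised to 1 array. All 5 cultures carried the tagged allele and all had been starved, so there was neither an untagged strain nor a culture kept in phosphate throughout. With 1 array per dose there were no replicates, and the number of arrays limits the precision.

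When phosphate is scarce, the kinase Pho80-Pho85 is inhibited and the transcription factor Pho4 stays in the nucleus, where it turns on genes for taking up and releasing phosphate. Secreted acid phosphatases such as Pho5 cut phosphate from organic molecules outside the cell, the vacuolar alkaline phosphatase Pho8 does so in the vacuole, and cytosolic enzymes such as Phm8 act on phosphorylated metabolites. PHO5 is the classic reporter of the pathway, while its neighbour PHO3 encodes an acid phosphatase known as constitutive with respect to phosphate and repressed by thiamine. In a bulk culture a lower signal from fewer expressing cells cannot be told apart from a lower signal from less RNA per cell.

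Values below are signals on a linear scale in which 11.4, the 40th percentile of all values, was taken as the background level. The median gene differed by -0.24, -0.20, -0.37 and -0.26 (log2) from 0 mM at 0.01, 0.1, 1 and 10 mM, and differences called relative have this median subtracted. Probe sets at the 3' end of a transcript were set against those at its 5' end as a sign of RNA integrity, and this ratio lay between 1.11 and 3.00 for ACT1 and between 1.51 and 4.52 for TBP, and each was highest at 0.01 mM. Poly-A spike-in controls were 10.4-fold lower at 10 mM than at 0 mM, while hybridisation controls were 1.10-fold lower. A straight line over dose order was fitted to the log2 signal of every gene with limma, with Benjamini-Hochberg adjustment over all genes. By this test 8.13% of all genes fell and 1.16% rose.

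Of the 6 phosphatase genes 2 fell on dose order, PHO5 and PHM8, 0 rose and 4 did not pass (limma with Benjamini-Hochberg adjustment). Set against 8.13% of all genes falling, 2 of 6 is a count too small to read as a share. At an unadjusted p below 0.05, 4 of the 6 had a negative slope and 0 a positive one, against 1144 and 403 of all 4824 genes. With values below background set to that level, 3 of the 6 had at most 0.5 of their 0 mM signal left at 10 mM. None reached 2-fold more, against 21.2% and 7.52% of all genes. Over the step from 0.01 to 0.1 mM alone these counts were 2 and 1, against 12.3% and 12.8% of all genes. The median log2 difference of the 6 genes between 10 and 0 mM was -1.06, and that of all genes -0.26, also with this floor. DIA3, at 15.8 and 3.95 before the floor, was not among the 3, and its part in the median is set by the floor. The members thus ranged from the secreted enzyme PHO5, with a relative difference of -5.60, to its neighbour PHO3, with 0.45.

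**Figure D1:**
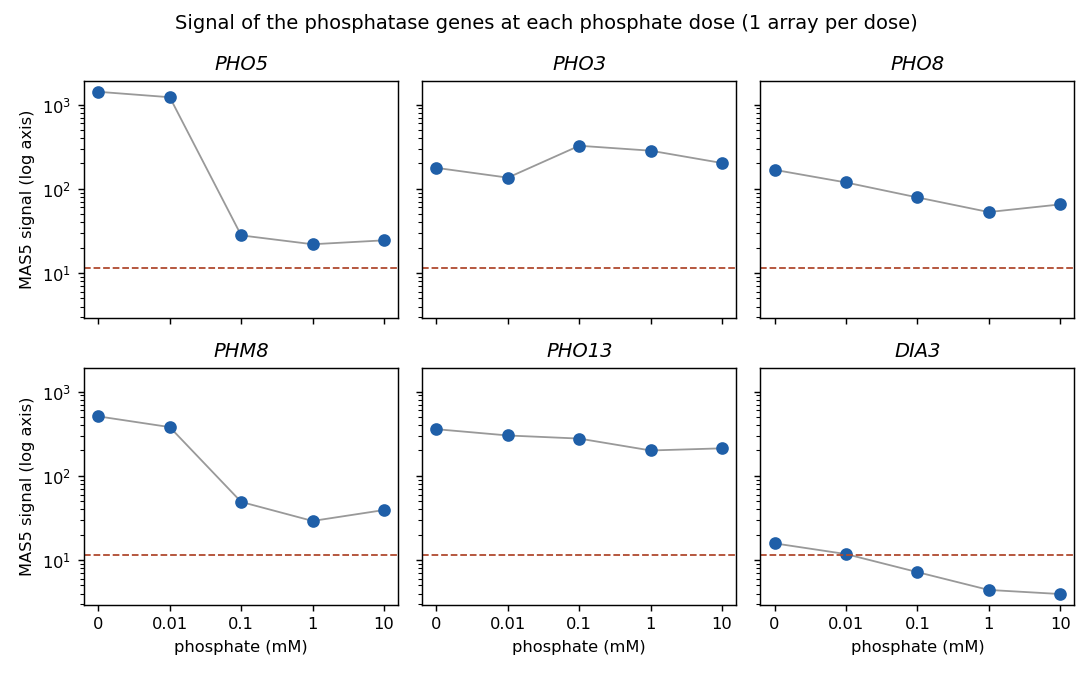
Signal (log axis) of each phosphatase gene against phosphate dose, 1 point per array, with the background level of 11.4 as a dashed line. PHO5 and PHM8 drop between 0.01 and 0.1 mM, PHO3 is highest at 0.1 mM, PHO8 and PHO13 are lower at each dose up to 1 mM, and DIA3 is above the line at 0 and 0.01 mM only.

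PHO5 encodes the main secreted acid phosphatase. Its signal was 1418 without phosphate and 1222 with 0.01 mM, against 28.0, 22.0 and 24.4 with 0.1, 1 and 10 mM. The arrays at 0 and 0.01 mM were high and the other arrays low, yet even the lowest remained above background. The step from 0.01 to 0.1 mM was 43.7-fold and made up 93.0% of the log2 difference between the ends. Over the same step the 3' to 5' ratio went for ACT1 from its highest value, 3.00, to its lowest, 1.11, and for TBP from 4.52 down to 2.01. The part of this in the differences of PHO5 and the other genes over that step was not tested. Below that step, the addition of 0.01 mM phosphate went with a 1.16-fold lower signal, a relative difference of 0.03, so PHO5 stood where the median gene stood. Above it, PHO5 was 1.27-fold lower at 1 than at 0.1 mM and 1.11-fold higher at 10 than at 1 mM. The slope was -1.75 ± 0.35 (log2 per dose step, SE, 5 arrays), with a 95% interval from -2.57 to -0.94 and an adjusted p = 0.0395 in limma. Among the 4244 genes at or above background at both 0 and 10 mM, PHO5 ranked 1 by the size of its fall in the deposited values. This ranking leaves out genes below background at either dose. Among those left out, HSP26 was at least 98.0-fold lower at 10 than at 0 mM, against 58.0-fold for PHO5.

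The drop of PHO5 lay in a single step, which a straight line treats partly as scatter: its residual SD was 1.11, against a median of 0.33 over all genes. A second comparison therefore set 0.1, 1 and 10 mM against 0 and 0.01 mM. Its split was drawn with earlier results of these data known, so its p-values are no independent evidence. PHO5 was lower at the 3 higher doses by -5.74 ± 0.21 (log2, SE; limma adjusted p = 5.48e-05). In this split comparison 22% of all genes were lower and 11.4% higher, and 3 of the 6 phosphatase genes, PHO5, PHM8 and PHO8, were lower and 0 higher.

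PHO3 lies next to PHO5 in the RefSeq annotation (assembly R64) and did not follow it. Its signal was 177, 136, 324, 283 and 202 from 0 to 10 mM, highest at 0.1 mM and lowest at 0.01 mM. Between 0.01 and 0.1 mM, where PHO5 dropped, PHO3 was 2.39-fold higher at the higher dose, a log2 difference of 1.26 that exceeded that of 92.2% of all genes. From 1 to 10 mM it was 1.40-fold lower, a log2 difference below that of all but 4.46% of genes. The slope of 0.14 ± 0.13 (log2 per dose step, SE) had a 95% interval from -0.16 to 0.45 and did not pass (limma adjusted p = 0.479). The values do not lie along a line, and in the split comparison the difference of 0.77 ± 0.27 also missed the threshold (limma adjusted p = 0.0609). With arrays at 1 median the adjusted p of the split comparison was 0.0120 in limma, and after quantile normalization 0.0161. Within each array the ratio of PHO5 to PHO3 signal, which a scaling of the whole array cannot change, lay 92.8-fold below its 0 mM value at 0.1 mM, 103-fold below it at 1 mM and 66.2-fold below it at 10 mM. At 0.01 mM this log2 ratio was 0.17 above that at 0 mM. The coding sequences of both genes are closely similar, so how far each probe set also binds RNA of the other gene is uncertain. PHO5 was at 1418 and 1222 on the arrays at 0 and 0.01 mM, and at 28.0 where PHO3 was highest. The part of PHO5 RNA in the PHO3 signal was not tested on any array.

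Because PHO3 is known for repression by thiamine, genes of thiamine synthesis and uptake were read beside it. Of 12 measured thiamine genes 1 fell, 0 rose and 11 did not pass (4 with a negative and 0 with a positive slope at an unadjusted p below 0.05). The gene that fell was THI4, for an enzyme of thiazole synthesis, with signals of 143, 68.5, 65.7, 39.8 and 40.7 (limma adjusted p = 0.0440). THI21 and THI20, for kinases of the pyrimidine branch, had 0 mM signals 2.59-fold and 2.16-fold above those of 10 mM and did not pass on dose order. In the split comparison 2 of the 12 were lower, THI21 (limma adjusted p = 0.00400) and THI20 (limma adjusted p = 0.00898). None was higher there, against 22% of all genes lower and 11.4% higher. None of these 3 genes was higher at 0.1 mM than at 0.01 mM, where PHO3 was, but 4 of the 12 were. One of them, named after its value was seen, was PDC2, whose product activates thiamine genes. Like PHO3 it was lowest at 0.01 and highest at 0.1 mM, with 24.3, 15.8, 35.9, 29.7 and 28.8 along the doses, and it did not pass (limma adjusted p = 0.454). THI2 and THI3 of the same list were lower at 0.1 than at 0.01 mM, by -0.24 and -0.48 (log2). THI2 was below background at 0.1 mM, so its difference rests in part on the floor.

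**Figure D2:**
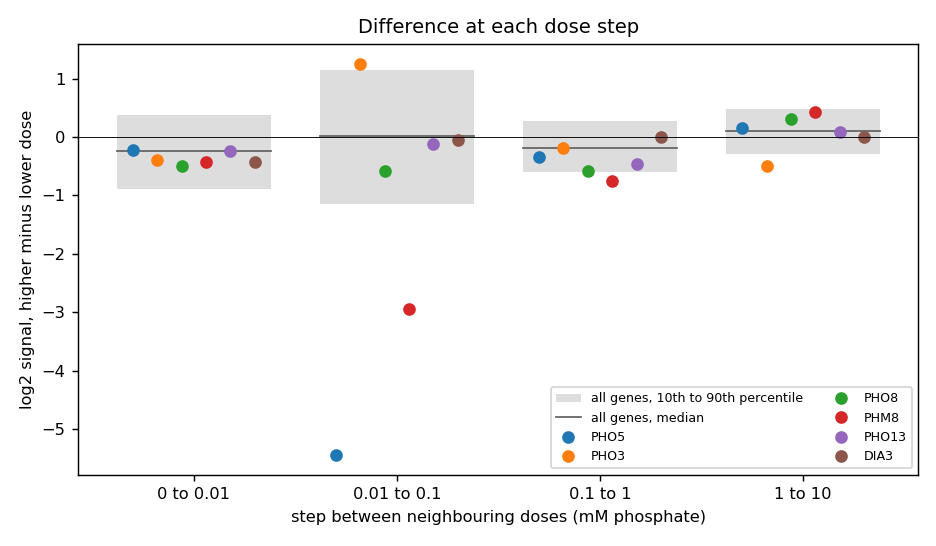
Log2 difference between neighbouring doses for each phosphatase gene (points), with the 10th to 90th percentile and the median of all 4824 genes (grey band and line). From 0.01 to 0.1 mM PHO5 (-5.45) and PHM8 (-2.95) lie below the band and PHO3 (1.26) above it, while the other genes lie inside.

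PHM8 encodes a cytosolic phosphatase that acts on lysophosphatidic acid and on nucleotides. Its signal was 508 without phosphate and 379 with 0.01 mM, against 49.0, 29.1 and 39.3 with 0.1, 1 and 10 mM. As for PHO5, the arrays at 0 and 0.01 mM were high and the others low, and the step between 0.01 and 0.1 mM, 7.73-fold, held 79.9% of the log2 difference between the ends. Unlike in PHO5, a further 1.68-fold difference followed between 0.1 and 1 mM, lower than in all but 4.23% of genes. The signal then stood 1.35-fold higher at 10 than at 1 mM. PHM8 fell by 1.11 ± 0.21 per dose step (log2, SE; 95% interval of the slope -1.60 to -0.62; limma adjusted p = 0.0395), and by the size of its fall it ranked 26 among the 4244 genes measured at both ends. In the split comparison the difference was -3.52 ± 0.28 (log2, SE; limma adjusted p = 0.000314). The ratio of PHO5 to PHM8 within an array lay 4.89-fold below its 0 mM value at 0.1 mM, 3.70-fold at 1 mM and 4.48-fold at 10 mM, so both genes dropped over the same step by unequal amounts.

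SDT1, a pyrimidine nucleotidase gene, is the paralog of PHM8 and was among 15 measured genes for other small-molecule phosphatases. Its signals of 399, 234, 66.2, 61.9 and 63.6 also fell (slope -0.72 ± 0.15, log2 per dose step, SE; limma adjusted p = 0.0399), with 10 mM 6.28-fold below 0 mM. At 0.01 mM SDT1 was already lower relative to PHM8: the log2 ratio of PHM8 to SDT1 was 0.35 above its value at 0 mM, then 0.78 below it at 0.1 mM, as PHM8 made the larger drop there. Of the 15 genes 2 fell, SDT1 and FBP1, 0 rose and 13 did not pass. FBP1, for the gluconeogenic fructose-1,6-bisphosphatase, was at least 4.55-fold lower at 10 mM. Like DIA3, it passed the filter on dim signal only through its arrays at 0 and 0.01 mM, so its call was fixed in part by the filter. INM2, for an inositol monophosphatase, was 4.45-fold lower and missed the threshold (limma adjusted p = 0.0505). At an unadjusted p below 0.05, 8 of the 15 had a negative slope and 0 a positive one, against 1144 and 403 of all 4824 genes. In the split comparison 9 of the 15 were lower and 0 higher, against 22% and 11.4% of all genes.

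Since PHM8 acts on nucleotides, genes of RNA and nucleoside breakdown were also read. Of 5 measured, 0 fell and 0 rose on dose order in limma, with 0 negative and 1 positive slope at an unadjusted p below 0.05. In the split comparison 1 was lower, ISN1 by -1.79 (log2, limma adjusted p = 0.00898). In the same comparison 1 was higher, AAH1 by 1.04 (log2, limma adjusted p = 0.0126). Of all genes 22% were lower and 11.4% higher. ISN1, the IMP 5'-nucleotidase gene, had signals of 246, 185, 38.5, 73.9 and 81.9, lowest at 0.1 mM. AAH1, the adenine deaminase gene, had 220 at 0 mM and 440.1 at 10 mM, the opposite order, and URH1, for a uridine nucleosidase, had 30.2 and 24.5.

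PHO8 encodes the alkaline phosphatase of the vacuole, an enzyme activated there by the protease Pep4. Its signal was 168, 119, 79.0, 52.9 and 65.3 from 0 to 10 mM. It was lower at each dose up to 1 mM, in steps of 1.41-fold, 1.51-fold and 1.49-fold, and 1.23-fold higher from 1 to 10 mM. No single step dominated: that between 0.01 and 0.1 mM held 43.3% of the difference between the ends, which was 2.57-fold. The slope of -0.39 ± 0.10 (log2 per dose step, SE; 95% interval -0.63 to -0.15) narrowly missed the threshold (limma adjusted p = 0.0511), and in the split comparison PHO8 was lower at the higher doses by -1.12 ± 0.26 (limma adjusted p = 0.0160). The ratio of PHM8 to PHO8 lay 4.88-fold below its 0 mM value at 0.1 mM and 5.03-fold below it at 10 mM.

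Other vacuolar hydrolases were set beside PHO8. Of 9 measured genes 7 fell and 0 rose, against 8.13% and 1.16% of all genes. Their median log2 difference between 10 and 0 mM was -2.16, against -1.36 for PHO8 and -0.26 for all genes. In the split comparison all 9 were lower, against 22% of all genes. ATH1 and CPS1, which did not pass on dose order, were above background only at 0 and 0.01 mM. Their values were thus fixed in part by the filter. PEP4, whose protease activates Pho8, had 920.4, 837, 311, 284 and 247 and fell (limma adjusted p = 0.0404). PRB1, another vacuolar protease gene, was 5.50-fold, the aminopeptidase gene APE1 8.0-fold and the mannosidase gene AMS1 11.8-fold lower at 10 than at 0 mM, and all 3 fell. PEP4, PRB1, APE1 and AMS1 made their largest step between 0.01 and 0.1 mM, as PHO8 did by a narrower margin. Across all genes 50.6% made their largest step there, and so did 4 of the 6 phosphatase genes.

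PHO13 encodes a cytosolic phosphatase that hydrolyses p-nitrophenyl phosphate in the test tube and phosphoglycolate-like side products in the cell. Its signal was 358, 301, 277, 200.0 and 212 from 0 to 10 mM, with the largest step, 1.38-fold, between 0.1 and 1 mM. PHO13 crossed the step from 0.01 to 0.1 mM with a 1.09-fold lower signal, where PHO5 had a 43.7-fold one. The slope of -0.21 ± 0.09 did not pass (limma adjusted p = 0.136), and its 95% interval reached from -0.41 to -0.01. The relative difference between the ends was -0.50, and the split comparison gave -0.53 ± 0.23 (limma adjusted p = 0.116).

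DIA3 resembles the secreted acid phosphatases in sequence and is named for growth into agar. Its signal ran from 15.8 without phosphate through 11.8, 7.19 and 4.42 to 3.95 in the highest dose. The last 3 values were below background and carry no order, so that DIA3 was at least 1.38-fold lower at 10 than at 0 mM. It did not pass on dose order (slope -0.10 ± 0.09, limma adjusted p = 0.468). With the background level at the 20th percentile, 2.91, all 5 values counted, the slope was -0.54 and the adjusted p in limma 0.0258. Of the other genes named for the same growth phenotype, DIA1, DIA2 and DIA4, 0 fell and 0 rose on dose order in limma. At an unadjusted p below 0.05 there were 1 negative and 0 positive slopes. In the split comparison 1 was lower, DIA4, and 0 higher, against 22% and 11.4% of all genes. DIA4, a mitochondrial seryl-tRNA synthetase gene, was at least 2.70-fold lower at 10 mM. Like DIA3, it passed the filter on dim signal only through its arrays at 0 and 0.01 mM, so its difference was fixed in part by the filter. DIA1 had 222 at 0 mM and 363 at 10 mM, and DIA2 had 45.5 and 51.6.

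The slopes put the 6 genes in the order PHO5, PHM8, PHO8, PHO13, DIA3 and PHO3, from the steepest fall upwards. The place of DIA3 is set by the floor: with the background level at the 20th percentile its slope of -0.54 was steeper than that of PHO8 (-0.39) and PHO13 (-0.21). The 95% intervals of PHO5 and PHM8 overlapped, as did those of PHM8 and PHO8 at their edges (-0.62 and -0.63), and neighbours further up the order overlapped broadly. Of 17 other measured Pho4 targets 12 fell, 0 rose and 5 did not pass (15 with a negative and 0 with a positive slope at an unadjusted p below 0.05), with slopes from -1.67 to -0.04 and a median log2 difference of -2.51. Among the 12, SPL2 and GIT1 passed the filter on dim signal only through their arrays at 0 and 0.01 mM, as DIA3 did. The 5 that did not pass were DDP1, PPN1, KRE2, PHO86 and PHM7, which include the phosphohydrolase gene DDP1 and the polyphosphatase gene PPN1. PHM7 too was above background only at 0 and 0.01 mM, so its slope of -0.04 was fixed in part by the floor. In the split comparison 14 of the 17 were lower and 0 higher, against 22% and 11.4% of all genes. DDP1 (limma adjusted p = 0.000683) and PPN1 (limma adjusted p = 0.00585) were among the 14, and KRE2, PHO86 and PHM7 were not. PHO84, the high-affinity phosphate transporter gene, went from 1157 over 172 to 27.8 between 0.01 and 1 mM, so that its descent took in the next dose as well, whereas PHO5 was at 28.0 by 0.1 mM. In the list of signalling and low-affinity transporter genes 1 of 8 fell, PHO85, and 0 rose (3 with a negative and 0 with a positive slope at an unadjusted p below 0.05). PHO90, a low-affinity transporter gene, had 129, 116, 397, 274 and 275, lowest at 0.01 and highest at 0.1 mM like PHO3, and did not pass on dose order (limma adjusted p = 0.160). In the split comparison PHO90 was higher at the higher doses by 1.34 (log2; limma adjusted p = 0.00641), where PHO3 missed the threshold; the difference between the genes was not tested. PHO4 itself had signals from 44.8 to 78.8 with no order along the doses (limma adjusted p = 0.573).

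**Figure D3:**
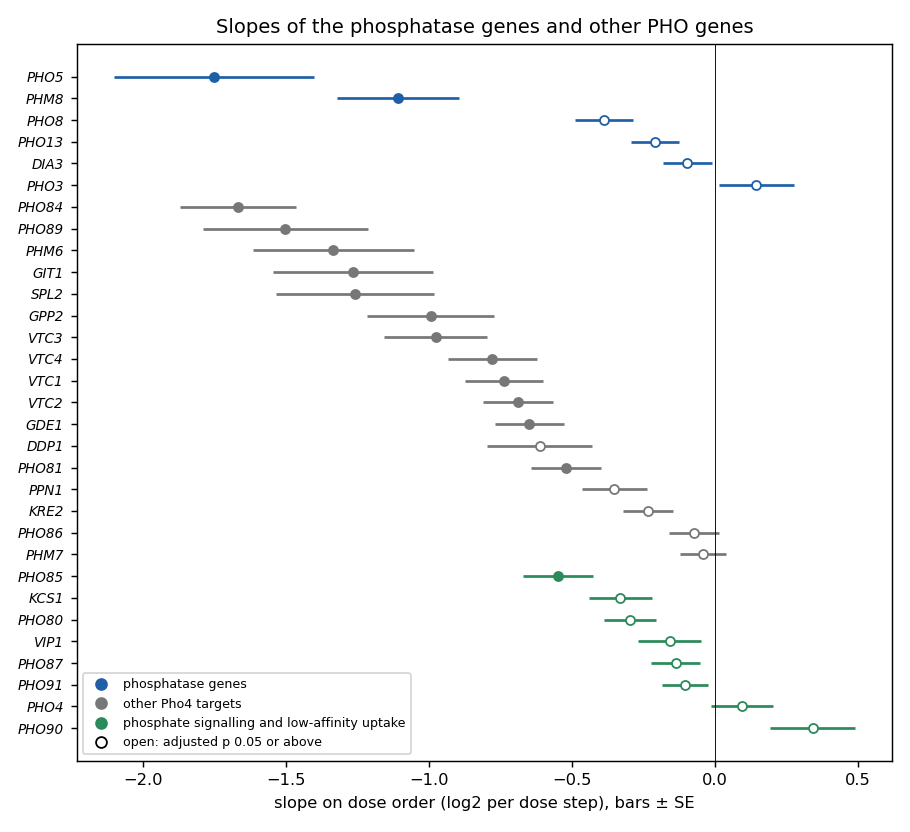
Slope on dose order (log2 per dose step) with its SE for the 6 phosphatase genes, 17 other Pho4 targets and 8 signalling and low-affinity transporter genes. Filled points passed the test in limma. PHO5 (-1.75, SE 0.35) lies beyond all 17 other Pho4 targets, but PHO84 (-1.67) is within that SE. Slopes of targets below background at some doses, such as SPL2, GIT1 and PHO89, rest in part on the floor. PHM8 (-1.11) lies among the targets that fell, and PHO3 (0.14) is the only phosphatase gene with a positive slope.

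Profiles over the 5 arrays were compared by the root mean square distance between mean-centred log2 signals. The genes nearest to PHO5 were HSP26 at a distance of 0.30, GPG1 at 0.39 and FMP16 at 0.47. GPG1 passed the filter on dim signal only through its arrays at 0 and 0.01 mM, and HSP26 was below background at 1 and 10 mM. The distances of both were thus fixed in part by the filter or the floor. HSP26 encodes a small heat shock protein, and its signals along the doses were 1121, 905, 20.4, 10.6 and 11.1. Nearest to PHM8 were GPP2 at 0.17, SOL4 at 0.19 and UGX2 at 0.20, of which SOL4 was below background at 1 and 10 mM. GPP2, itself a Pho4 target and the gene of a glycerol phosphatase, had 391, 320.3, 44.2, 26.4 and 43.4, with the same upturn at 10 mM as PHM8. Nearest to PHO8 were NMA2 at 0.03, RCR2 at 0.05 and OM14 at 0.06, and nearest to PHO3 were HIS6 at 0.04, DMA1 at 0.09 and RRP7 at 0.09. HIS6 was dim, with 14.0 at 0 mM and 10.2, below background, at 0.01 mM, so its distance rests in part on the floor. With 5 arrays these distances describe the shapes and carry no test.

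The direction of each gene was then read under other scalings of the arrays. PHO5 and PHM8 were lower at 10 than at 0 mM under all 5 scalings, and PHO3 was higher under all 5. PHO5 was 41.9-fold lower with arrays at 1 median, 72.9-fold after quantile normalization, 52.9-fold with equal hybridisation controls and 5.58-fold with equal poly-A spike-in signal. Under the last of these the median of all genes was 3.12 (log2, 10 minus 0 mM), PHM8 differed by -0.32 and PHO8, PHO13 and DIA3 turned to 2.01, 2.62 and 2.91. Relative to the median of all genes, the differences between 10 and 0 mM lay between -6.28 and -5.57 for PHO5, between -3.74 and -3.40 for PHM8, between -1.11 and -1.07 for PHO8, between -0.64 and -0.46 for PHO13 and between 0.42 and 0.48 for PHO3. A scaling that shifts all genes of an array alike cannot change these relative values, so only those with arrays at 1 median, where the floor moves, and after quantile normalization are separate readings. The 17 alternative fits comprised 15 on dose order and otherwise splits of the doses. PHO5 passed in 9 of the 17 and PHM8 in 8. For both genes these include the split at 0.1 mM and the fit on log10 dose, which repeats the main fit. Adjusted p-values in limma reached 0.391 on dose order, and 0.506 for 1 and 10 mM against lower doses. Without the array of 0, 0.01 or 1 mM neither PHO5 nor PHM8 passed, nor did any gene of the whole table. In these fits 614, 1347 and 957 genes had an unadjusted p below 0.05.

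**Figure D4:**
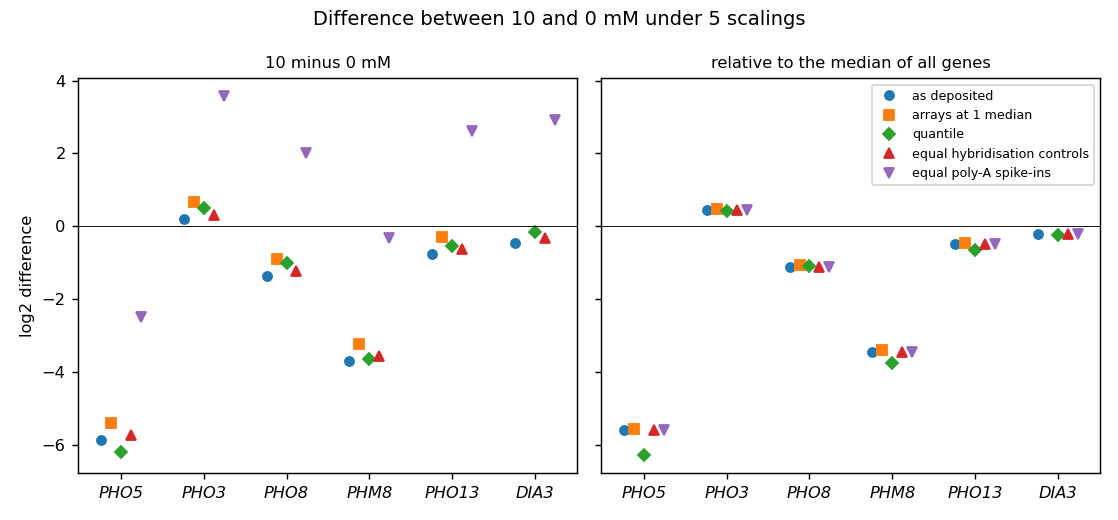
Log2 difference between 10 and 0 mM of each phosphatase gene under 5 scalings of the arrays, as such (left) and relative to the median of all genes (right). Equal poly-A spike-in signal moves every gene up on the left, so that PHO8, PHO13 and DIA3 lie above 0, while on the right the control scalings equal the deposited values by construction; DIA3 has no value with arrays at 1 median, where it was filtered out.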

How the data were processed

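RNA of 5 yeast cultures, 1 per phosphate dose, was measured on Affymetrix arrays. The deposited values are intensity on a linear scale, 1 signal per probe set and array, made by the authors with MAS5, as the submitters' processing notes say. The scaling target, version and filters of that step were not given in the sources used here. Of 9335 probe sets 6504 had 1 gene in the platform's annotation (all matched by gene identifier to RefSeq assembly R64), 328 had several and 2503 were not listed. Values were floored at the 40th percentile (11.4), log2 was taken, probe sets at or above it on at least 2 arrays were kept (5083), and those of a gene were averaged (4824 genes). Lines over dose order and a split of doses were fitted with limma 3.58.1 in R 4.3.3 (eBayes, 3 residual and 7.64 moderated degrees of freedom), with adjusted p under 0.05 as threshold. The fit of lines was tested on simulated data with straight slopes. The split, the floor and profiles with a single step were not simulated. The labels do not state separate or parallel growth of the cultures.

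The genes, the comparison lists (other Pho4 targets, phosphate signalling, other small-molecule phosphatases, thiamine, vacuolar hydrolases, RNA and nucleoside breakdown, genes named for growth into agar) and the tests were chosen with earlier results of these data known. Named were the 6 genes, the measured Pho4 targets and signalling genes, from each other list the 3 genes that differed most between 10 and 0 mM, and, for phosphatase genes spanning more than 1 log2 unit, the 3 nearest profiles. PEP4, PDC2, THI2, THI3, ATH1 and CPS1 were named outside this rule. Alternatives covered scaling, floor, filter, dose scale, split, variance trend and each array left out. The scalings to control probe sets, and the split after other scalings, were added after seeing the data.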

Additional observations from a re-analysis of the deposited data

Results flagged for a closer look

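The secreted acid phosphatase genes PHO11 and PHO12 share 1 probe set, which belongs to no single gene and was left out of the comparisons above. Its signal was 570.7 without phosphate and 288 with 0.01 mM, against 16.3, 11.4 and 12.1 with 0.1, 1 and 10 mM, and so drew attention as a strong signal outside the measured genes. It was 17.7-fold lower at 0.1 than at 0.01 mM, the step at which PHO5 dropped, and 47.3-fold lower at 10 than at 0 mM. Between 0 and 0.01 mM it was already 1.98-fold lower, where PHO5 was 1.16-fold lower. Which of the genes gave the signal was not tested.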

How the results depend on the processing

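No paired analysis was possible because each dose had 1 array. The count of phosphatase genes past the test on dose order, 2, was 0 with arrays at 1 median, after quantile normalization, with the floor at the 60th percentile, with no filter on dim probe sets and for 1 and 10 mM against lower doses. It was 5 with equal spike-in signal (PHO5 lower and 4 higher), and between 0 and 3 with each array left out. Over all genes the count of 448 was 0 with arrays at 1 median, 4 after quantile normalization, 0 with the floor at the 60th percentile, 1 with no filter and 0 for 1 and 10 mM against lower doses. In the 3 fits with no gene past the test 373 to 1644 genes had an unadjusted p below 0.05. The count was 1611 in the split comparison, 4338 with equal spike-in signal, 884 with equal hybridisation controls, and between 0 and 950.0 with each array left out. Log10 dose with 0 mM set to 0.001 mM spaces the doses as dose order does and gave the same fit. Slopes turned only under equal spike-in signal, to 0.43 for PHO8, 0.60 for PHO13 and 0.72 for DIA3, as did the differences between 10 and 0 mM of the same genes, to 2.01, 2.62 and 2.91; this scaling adds the same shift to every gene of an array. The cause of a lost call was not tested in any of these fits. DIA3 had no value with arrays at 1 median or the floor at the 60th percentile. Signals near 11.4 limit what can be said of DIA3.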
